A study of Mus musculus with 4 samples.

Results

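The receptors and the degrading enzyme of acetylcholine signalling were followed in the cerebellum of mouse pups. The set holds 10 genes, namely the nicotinic receptor subunits Chrna3, Chrna5, Chrnb4, Chrna4, Chrna7 and Chrnb2, the muscarinic receptors Chrm2, Chrm3 and Chrm4, and the enzyme acetylcholinesterase, Ache. On the chip they are listed as CHRNA3, CHRNA5, CHRNB4, CHRNA4, CHRNA7, CHRNB2, CHRM2, CHRM3, CHRM4 and ACHE. They were chosen by gene symbol, and every probe that carries one of these symbols was taken, which gave 20 probes of the 45281 on the chip, where 30854 symbols are represented. The arrays came from untreated Swiss mice at postnatal day 7, and compared the anterior with the posterior cerebellar lobes, dissected apart, in order to find genes with a restricted expression in the posterior lobes. There were 2 anterior and 2 posterior samples, each measured on 1 array of the Illumina MouseWG-6 v2.0 chip, on which a probe sits on many beads whose average brightness was recorded as its intensity. The labels do not say whether the samples of a lobe came from different animals, so the p-values measure only the spread between these samples. In such bulk tissue, fewer cells of a type and less RNA per cell cannot be told apart.

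Acetylcholine acts through both receptor classes. Nicotinic receptors are ion channels built from several subunits around a pore, and their combination of α and β subunits sets how readily they open, desensitize and pass calcium. Muscarinic receptors are G protein coupled, with Chrm3 signalling through Gq and phospholipase C, and Chrm2 and Chrm4 through Gi, which lowers cyclic AMP and opens potassium channels. In the cerebellum the cholinergic input comes mainly from the brain stem, through a share of the mossy fibres and through thin beaded fibres, and is known to be denser in the vestibular lobules of the posterior cerebellum.

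Chrna3, Chrna5 and Chrnb4, whose products assemble into the α3β4 receptors of autonomic ganglia, lie side by side in 1 gene cluster. Their order in RefSeq on the mouse assembly GRCm38.p6 is Chrna5, Chrna3, Chrnb4. Chrna5 is transcribed from the plus strand and the others from the minus strand, and the gene models of Chrna5 and Chrna3 overlap. The 250 bases before each annotated start are shown 5′ to 3′ on the strand of the gene, because the genes are neighbours and the arrays gave a signal above background for 1 of them. Capitals mark a GC box, GGGCGG, or a homeodomain core, TAATTG, on either strand, the kind of short sequence that Sp1 family proteins and many homeobox proteins are known to bind.
Chrna3, chr9:55026563-55026812, minus strand: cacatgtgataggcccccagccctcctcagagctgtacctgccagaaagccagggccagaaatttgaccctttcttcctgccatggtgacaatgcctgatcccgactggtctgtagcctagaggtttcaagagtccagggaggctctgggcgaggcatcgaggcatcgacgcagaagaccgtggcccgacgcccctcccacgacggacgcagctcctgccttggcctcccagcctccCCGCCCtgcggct
Chrnb4, chr9:55048545-55048794, minus strand: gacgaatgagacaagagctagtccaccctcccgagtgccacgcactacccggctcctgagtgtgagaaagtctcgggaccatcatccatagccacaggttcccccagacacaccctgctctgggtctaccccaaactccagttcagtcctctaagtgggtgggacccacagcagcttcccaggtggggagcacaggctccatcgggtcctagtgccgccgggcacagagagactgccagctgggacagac
Chrna5, first start, chr9:54980630-54980879, plus strand: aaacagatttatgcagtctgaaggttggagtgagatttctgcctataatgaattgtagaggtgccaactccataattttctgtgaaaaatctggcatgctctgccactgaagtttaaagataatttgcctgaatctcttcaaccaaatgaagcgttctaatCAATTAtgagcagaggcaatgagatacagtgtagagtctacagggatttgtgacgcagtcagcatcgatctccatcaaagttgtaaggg
Chrna5, second start, chr9:54981238-54981487, plus strand: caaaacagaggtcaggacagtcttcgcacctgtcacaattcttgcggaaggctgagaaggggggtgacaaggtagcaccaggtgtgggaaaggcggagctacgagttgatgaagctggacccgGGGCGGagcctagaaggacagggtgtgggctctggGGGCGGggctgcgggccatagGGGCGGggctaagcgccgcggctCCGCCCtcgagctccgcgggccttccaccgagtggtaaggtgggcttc

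The Chrna3 window held 63.2% G and C, with 1 GC box close to the start and no homeodomain core. The Chrnb4 window was alike in base composition, with 61.2% G and C, and held neither motif. Of the Chrna5 windows the first had 40% G and C with 1 homeodomain core, and the second had 65.2% with 4 GC boxes. Over the 32851 promoter windows of this length in the RefSeq table, 32.7% held a GC box and 7.17% a homeodomain core, and the median G and C content was 52.4%. A match or its absence describes only these letters, and binding was not measured.

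Over the 4 arrays 46.5% to 47.6% of all probes were detected, that is, had a detection p-value under 0.05, the detection p being the share of negative control beads at least as bright. The 21726 probes detected on at least 2 arrays were tested for a difference between the lobes, posterior minus anterior, on quantile normalized log2 intensities with limma. Of the 20 acetylcholine probes 9 were detected on all 4 arrays and 1 on 2 arrays, so 10 probes of 7 genes were tested. The remaining 10 were detected on no array, with intensities of 61.5 to 125.1 and detection p-values of 0.0673 to 0.793, and Chrna5, Chrnb4 and Chrm4 had no other probe. The plot of intensities by probe shows them as open symbols. These undetected probes only give an upper bound, and they do not show that the genes are silent.

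**Figure D1:**
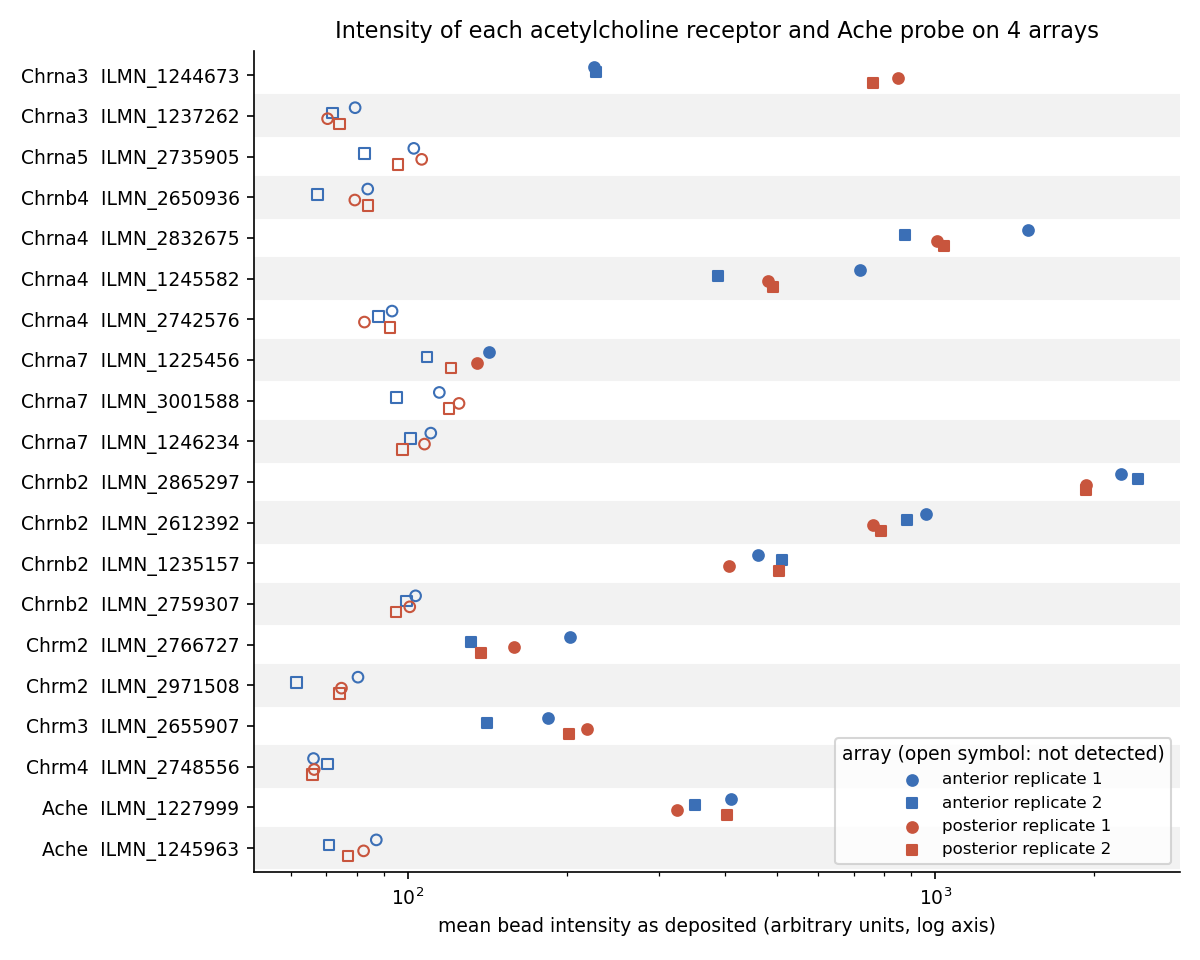
Deposited mean bead intensity (arbitrary units, log axis) of the 20 probes of the acetylcholine genes, with circles for replicate 1 and squares for replicate 2 of each lobe, anterior in blue and posterior in red, and open symbols where the probe was not detected. The posterior points of Chrna3 ILMN_1244673, at 849.6 and 760.4, lie apart from its anterior points at 225.7 and 227.1, while for most other detected probes the lobes lie close together or overlap.

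The study called a gene changed above 1.2-fold with an unadjusted p-value below 0.05, and its methods name Student's t-test. Here the criterion was applied to limma p-values. By it 1 probe each of Chrna3 and Chrm3, 2 of the 10 tested, was higher in the posterior lobes and none was lower. It took in 8.29% of all tested probes, 3.3% as higher and 5% as lower. With the methods' t-test 1 of the 10, that of Chrna3, and 741 of all tested probes passed. With Benjamini-Hochberg adjustment over the 21726 probes only the probe of Chrna3 kept a p below 0.05, where 0.106% of all tested probes did, 0.0736% as higher and 0.0322% as lower. The lobes did not overlap for 4 of the 10 probes, 2 with both posterior arrays above (Chrna3 and Chrm3) and 2 with both below (Chrnb2), and such a separation was found for 21.1% and 21.5% of all tested probes. The median log2 difference of the 10 probes was -0.092, against 0.0023 over all tested probes. With 2 arrays a lobe the smallest two-sided p of an exact permutation test is 0.333, and each call therefore uses the spread that limma shares across probes.

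Chrna3, the α3 subunit of ganglionic nicotinic receptors, showed by far the widest gap between the lobes of the tested acetylcholine probes. The intensity of its detected probe, ILMN_1244673, was 225.7 and 227.1 on the anterior arrays, and 849.6 and 760.4 on the posterior ones. Before normalization the anterior intensities were nearly alike, and both posterior ones were several fold brighter. These are means over 33 to 50 beads, with a standard error of 3.56% to 4.74% of the intensity, so bead noise was far below the gap. In the anterior lobes the signal was low but above background, since a share of 0.00107 of the negative controls reached it on either array, and in the posterior lobes none did. On the normalized log2 scale the arrays read 7.70 and 7.96 against 9.77 and 9.56, and the difference was 1.84 (SE 0.15, 95% interval 1.47 to 2.20, limma adjusted p = 0.030), a 3.57-fold higher posterior signal. On this scale replicate 1 minus replicate 2 was -0.26 for the anterior pair and 0.21 for the posterior pair, so the anterior pair was not the closer one. By p-value the probe ranked 14 among all tested probes. The adjusted p was lost without posterior replicate 1 (0.377) and without posterior replicate 2 (0.624), although the difference stayed at 1.74 and 1.94.

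The gene has another probe, ILMN_1237262, which did not show this difference. Its intensities of 79.5 and 72.1 in the anterior and 70.5 and 74.2 in the posterior lobes were all at background, and its detection p-values ran from 0.386 to 0.559. The rise of Chrna3 on these arrays is therefore the reading of 1 probe. Which part of the transcript each probe covers was not analysed here.

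The partners of Chrna3 in the cluster gave no signal above background in either lobe. Chrna5 codes for an accessory subunit that joins α3β4 and α4β2 receptors, and its probe ILMN_2735905 read 102.7 and 82.9 in the anterior and 106.3 and 95.9 in the posterior lobes. Chrnb4 codes for the β4 subunit, the usual partner of α3, and its probe ILMN_2650936 read 84.0 and 67.4 against 79.4 and 84.1. The lobes overlapped for both probes. At this signal a difference of either gene between the lobes that stayed below detection could not be seen.

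None of the genes around the cluster passed the adjusted p. Taking the 5 genes on either side in RefSeq order, those with a tested probe were Ireb2, an iron regulatory protein, Hykk, a hydroxylysine kinase, and Psma4, a proteasome subunit, beside Chrna5, and Ube2q2, a ubiquitin conjugating enzyme, beyond Chrnb4. Ireb2 had log2 differences of 0.058 and -0.29 on its probes, Hykk 0.024, and Psma4 0.12 and 0.19. Ube2q2 was higher on each of its probes, by 0.26, 0.28 and 0.38, and with ILMN_2826027 (0.38, SE 0.14, limma adjusted p = 0.447) it passed the criterion of the study. AY074887, Fbxo22 and Nrg4 had only probes that were not tested, and the pseudogenes Rab7-ps1, Gm7395 and Gm15625 had no probe. In this stretch the interval of Chrna3, from 1.47 to 2.20, lay above the interval of every tested neighbour, as the plot in gene order shows.

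**Figure D2:**
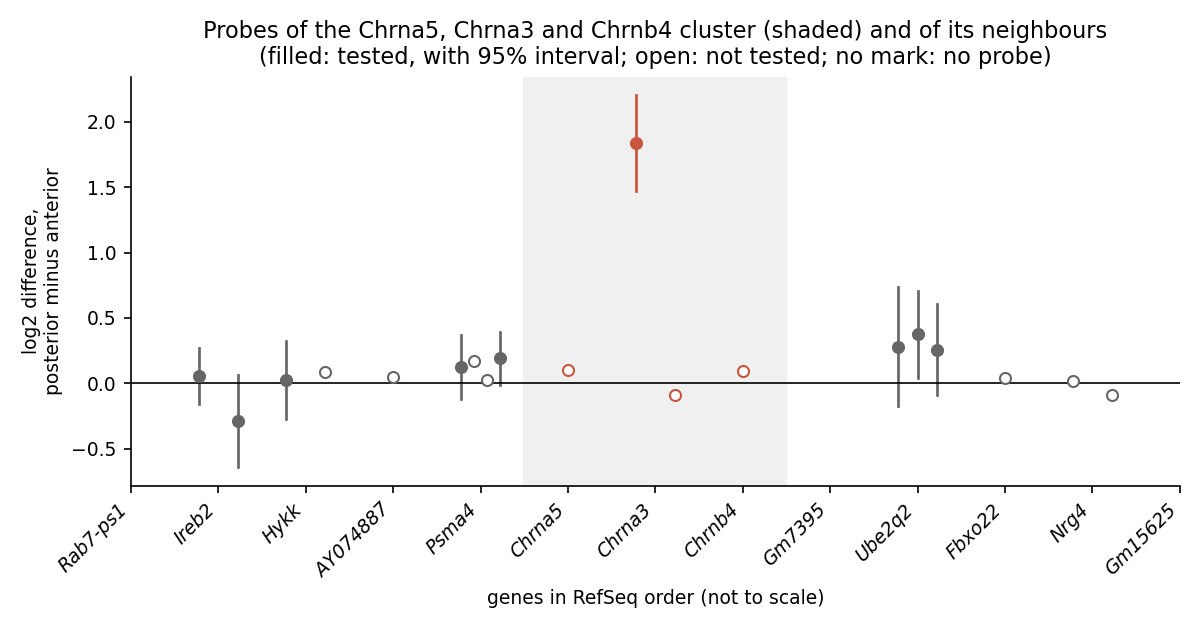
Log2 difference between the lobes, posterior minus anterior, for each probe of the Chrna5, Chrna3 and Chrnb4 cluster (red, shaded) and of the 5 genes on each side (grey), in RefSeq order and not to scale. Filled points are tested probes with 95% intervals from limma and open points were not tested. Chrna3 ILMN_1244673 stands at 1.84 and the tested neighbours lie between -0.29 and 0.38.

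Chrna4 and Chrnb2 form the α4β2 receptor, the main high affinity nicotinic receptor of the brain, and both were well above background. Chrna4 was read by ILMN_2832675 at 1496.8 and 876.9 in the anterior and 1009.0 and 1040.0 in the posterior lobes. Its probe ILMN_1245582 read 718.3 and 386.4 against 482.0 and 493.2. On both probes the anterior arrays enclosed the posterior ones, with anterior replicate 1 above anterior replicate 2 by 0.56 and 0.65 on the log2 scale, against 0.021 and 0.0063 between the posterior arrays. The difference between the lobes was -0.14 (SE 0.19, 95% interval -0.61 to 0.32) and -0.10 (SE 0.22, -0.64 to 0.44), with limma adjusted p-values of 0.831 and 0.906, and its sign turned without anterior replicate 1, to 0.14 and 0.22. Another probe, ILMN_2742576, was at background with 82.8 to 93.4.

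Chrnb2, the β2 subunit, read lower in the posterior lobes on each tested probe, but none passed the criterion. The intensity of ILMN_2865297 was 2246.2 and 2416.7 in the anterior and 1927.9 and 1932.9 in the posterior lobes. With ILMN_2612392 it was 961.6 and 884.1 against 759.9 and 787.5. On these probes the posterior arrays were the dimmer pair, with log2 differences of -0.26 (SE 0.12, 95% interval -0.56 to 0.042) and -0.23 (SE 0.10, -0.49 to 0.025) and limma adjusted p-values of 0.547 and 0.531. Leaving out anterior replicate 1 gave ILMN_2865297 a difference of -0.42, and leaving out anterior replicate 2 one of -0.10. ILMN_1235157 overlapped between the lobes, at 460.6 and 511.2 against 406.3 and 505.5 (log2 difference -0.085, SE 0.18, limma adjusted p = 0.901). ILMN_2759307 was at background, with 103.5 as its highest intensity.

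Chrna7 forms the α7 receptor, a channel of 1 subunit type that is known for its calcium permeability. ILMN_1225456 was at the edge of detection, with 142.6 and 108.7 in the anterior and 135.2 and 120.8 in the posterior lobes. It passed detection on replicate 1 of each lobe, with detection p-values of 0.0481 and 0.0459, and missed it on replicate 2 of each, with 0.0876 and 0.106. The lobes overlapped fully, and the log2 difference was 0.0016 (SE 0.11, 95% interval -0.27 to 0.28, limma adjusted p = 0.997). Its probes ILMN_3001588 (95.2 to 125.1) and ILMN_1246234 (97.7 to 110.6) were not detected.

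Among the muscarinic receptors, Chrm3, which is coupled to Gq, was higher in the posterior lobes by the criterion of the study but not after adjustment. ILMN_2655907 read 184.5 and 141.3 in the anterior and 218.7 and 202.1 in the posterior lobes, with detection p-values of 0.00962, 0.0182, 0 and 0.00534. The posterior arrays were the brighter pair, although posterior replicate 2 and anterior replicate 1 were close. The log2 difference was 0.37 (SE 0.11, 95% interval 0.085 to 0.65), a 1.29-fold higher signal with an unadjusted limma p of 0.0189 and an adjusted p of 0.396. It no longer met the criterion without anterior replicate 2 or without posterior replicate 1 (0.30 each), with the methods' t-test, or without normalization (0.38).

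Chrm2, a Gi coupled receptor, was read by ILMN_2766727 at 203.4 and 131.9 in the anterior and 158.9 and 137.4 in the posterior lobes, and anterior replicate 1 stood above the other arrays. Its log2 difference was -0.18 (SE 0.16, 95% interval -0.56 to 0.21, limma adjusted p = 0.728), and without anterior replicate 1 it was 0.00034. ILMN_2971508, of the same gene, was at background with 61.5 to 80.5. Chrm4, likewise Gi coupled, was not detected, at 66.3 and 70.4 against 66.5 and 66.0 with ILMN_2748556.

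Ache, the enzyme that ends the signal by splitting acetylcholine, was detected on every array with ILMN_1227999. Its intensity was 409.9 and 350.3 in the anterior and 323.9 and 402.2 in the posterior lobes. On the normalized log2 scale the anterior arrays were nearly equal, at 8.54 and 8.58, and lay between the posterior ones, at 8.36 and 8.64. The log2 difference was -0.062 (SE 0.14, 95% interval -0.41 to 0.28, limma adjusted p = 0.910). A second probe, ILMN_1245963, was at background with 70.9 to 87.2. Apart from Chrna3, the 9 tested probes thus had log2 differences of -0.26 to 0.37, 7 of them lower and 2 higher in the posterior lobes, and their 95% intervals reached from -0.64 to 0.65.

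**Figure D3:**
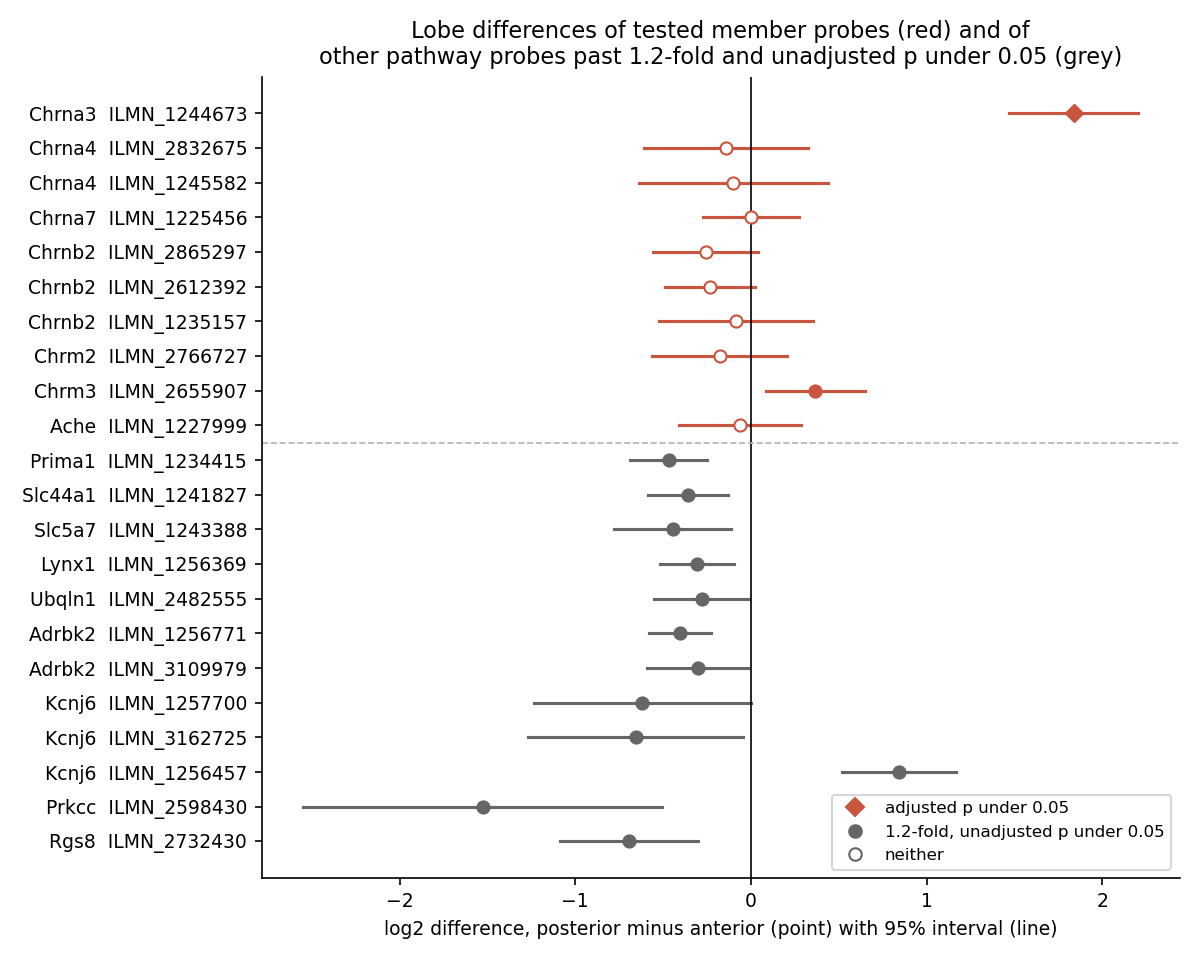
Log2 difference between the lobes, posterior minus anterior, with its 95% interval from limma (line), for the 10 tested probes of the acetylcholine genes (red) and for the 12 probes of the other pathway lists past 1.2-fold with an unadjusted p under 0.05 (grey). The interval of Chrna3 runs from 1.47 to 2.20, and only Chrm3 among the other receptor probes has one that leaves out 0. Of the 12 pathway probes, which were picked by passing this criterion, 11 lie below 0. Over all tested probes 1086 passed it as lower and 716 as higher. Kcnj6 has probes on both sides, and the probe of Prima1, among the 11, was not detected in the posterior lobes.

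Of the other nicotinic subunits, 10 genes for muscle, hair cell and rarer neuronal subunits, only Chrnb1 was tested, and no probe passed the criterion. Chrnb1, the β subunit of the muscle receptor, had a log2 difference of 0.13 with ILMN_3001481 (limma adjusted p = 0.732). Its other tested probe, ILMN_2685921, read -0.19, with both anterior but neither posterior array detected, so no direction can be given for the gene. The remaining muscarinic receptors, Chrm1 and Chrm5, were not detected on enough arrays to be tested.

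Among the genes for making, moving and splitting acetylcholine, Slc5a7 and Slc44a1 passed the criterion of the study as lower in the posterior lobes. Prima1 passed it as well, but was tested only through its detected anterior arrays. None passed after adjustment. Of 7 genes 4 were tested with 5 probes. Of these, 3 were lower, Prima1 included, and none higher by the criterion, where 5% of all tested probes were lower. The median log2 difference of the 4 genes, Prima1 included, was -0.40, against 0.0023 over all tested probes. Apart from Prima1 the brightest probes had -0.44 (Slc5a7), -0.36 (Slc44a1) and -0.035 (Bche). Slc5a7 carries choline back into cholinergic terminals, and its log2 signal with ILMN_1243388 was 8.78 and 8.55 in the anterior and 8.28 and 8.17 in the posterior lobes. It was lower on both posterior arrays, by -0.44 (SE 0.14, limma adjusted p = 0.386). Prima1 anchors acetylcholinesterase in neuronal membranes. Its intensity with ILMN_1234415 was 144.3 and 125.9 in the anterior and 101.9 and 98.2 in the posterior lobes, where it was not detected. Set against the lowest detected signal of each posterior array, it was at least 1.03-fold lower there (limma adjusted p = 0.199). This bound is short of 1.2-fold, and the probe was tested only because the anterior arrays detected it. Its call, which is in the count and the median above, is therefore not used as support. Slc44a1, a choline transporter found in many cell types, had a log2 difference of -0.36 with ILMN_1241827 (10.80 against 10.45, limma adjusted p = 0.321), while its other tested probe had -0.10. Slc5a7 lost the criterion with the methods' t-test and without posterior replicate 1 (-0.50) or 2 (-0.39), and Slc44a1 without posterior replicate 1 (-0.38) or 2 (-0.33). Prima1 met it in each of the 10 alternatives that tested its probe, but its posterior values were not detected, so this adds no support. Bche, the other cholinesterase, had a log2 difference of -0.035. Chat, which makes acetylcholine, and Slc18a3, which loads it into vesicles, are the defining genes of cholinergic neurons, and neither was detected, with 56.7 to 87.1 over the Chat probes and 67.2, 59.5, 63.1 and 68.4 for ILMN_1247491 of Slc18a3. Colq, a collagen tail of the enzyme at the muscle endplate, was not tested either.

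A list of nicotinic receptor chaperones and Ly6 proteins, small proteins that bind these receptors, also held other genes, among them Agrn, Lrp4 and Dok7. Its tested genes had a median log2 difference of -0.011. Of 18 genes 17 were on the chip and 14 were tested with 20 probes, of which 2 passed the criterion as lower and none as higher, against 5% and 3.3% of all tested probes. Lynx1, which is known to dampen nicotinic receptor responses, had an anterior log2 signal of 13.19 and a posterior one of 12.89 with ILMN_1256369, a difference of -0.31 (SE 0.086, limma adjusted p = 0.355). Ubqln1, a ubiquilin that holds back receptor subunits, had -0.28 with ILMN_2482555 (limma adjusted p = 0.483), while its other tested probes had 0.053 and -0.23. Neither passed the adjusted p, and without anterior replicate 1 the difference of Lynx1 was -0.40. Each met the criterion in 9 of the 14 alternatives, and both lost it without normalization, without anterior replicate 2 (-0.21 for Lynx1 and -0.24 for Ubqln1) and without posterior replicate 1.

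The genes that carry muscarinic signals inside the cell held more probes called lower than higher, as did all tested probes. Of 28 genes 23 were tested with 43 probes. By the criterion 6 probes passed as lower and 1 as higher, against 5% and 3.3% of all tested probes. The 6 lower probes came from 4 genes, of which Kcnj6 also gave the higher one. The median log2 difference of the genes was -0.12. None passed the adjusted p. Prkcc, the protein kinase C of Purkinje cells, had the largest difference, with log2 signals of 9.68 and 10.93 in the anterior and 8.48 and 9.07 in the posterior lobes, a difference of -1.53 (SE 0.42, limma adjusted p = 0.338). The anterior arrays were far apart on this probe, and the difference was -2.16 without anterior replicate 1 and -0.90 without anterior replicate 2. Rgs8, which speeds the switching off of Gi signals and is expressed in Purkinje cells, had 12.76 and 13.26 against 12.27 and 12.36, a difference of -0.69 (SE 0.16, limma adjusted p = 0.278). Adrbk2, a receptor kinase, was lower on both of its tested probes, with differences of -0.40 for ILMN_1256771 and -0.30 for ILMN_3109979 (limma adjusted p = 0.182 and 0.474). Without anterior replicate 1 the difference was -0.94 for Rgs8 and -0.42 for ILMN_1256771 of Adrbk2. Without anterior replicate 2 it was -0.44 for Rgs8 and -0.39 for ILMN_1256771. Without normalization the limma adjusted p of Prkcc was 0.0177, a setting in which 123 of all tested probes passed the adjusted p. The criterion of the study was lost by Prkcc without posterior replicate 1 (-1.23) and with the methods' t-test, by Rgs8 with the methods' t-test, and by ILMN_3109979 of Adrbk2 without normalization and without anterior replicate 2, posterior replicate 1 or posterior replicate 2.

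Kcnj6 codes for a subunit of the potassium channels that Gi coupled receptors open, and its probes went opposite ways. ILMN_1256457 read 7.92 and 7.70 on the log2 scale in the anterior and 8.71 and 8.60 in the posterior lobes, a difference of 0.84 (limma adjusted p = 0.126). ILMN_1257700 and ILMN_3162725 had -0.62 and -0.66 (limma adjusted p = 0.495 and 0.464), and ILMN_3112363 and ILMN_3038066 had -0.48 and -0.25 without passing the criterion. No direction can be given for this gene. Without anterior replicate 1 these 3 probes past the criterion had 0.95, -0.99 and -0.97, and without anterior replicate 2 ILMN_1256457 had 0.74. ILMN_1256457 met the criterion in all 14 alternatives, ILMN_3162725 in 11 and ILMN_1257700 in 7, and both of the latter lost it with the methods' t-test, without anterior replicate 2 (-0.35 and -0.26) and without posterior replicate 1 (-0.43 and -0.78). Over all these pathway lists 12 probes passed the criterion, where 1802 of the 21726 tested probes did. With the methods' t-test 6 passed, where 741 of all tested probes did.

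Markers of several cell types were read beside these genes, and their part in the results was not tested. Of 9 granule neuron genes 8 were tested, with a median log2 difference of -0.0036 and summed normalized signals of 36620 and 34934 in the anterior and 36398 and 34201 in the posterior lobes. Only Zic2 passed the criterion of the study, at 0.72 on 1 of its probes. This was 1 of the 11 tested probes of the list, where 3.3% of all tested probes were higher. Of 5 unipolar brush cell genes all were tested, with log2 differences of -0.39 to 0.37 on the brightest probe of each (median 0.067). Calb2 passed the criterion as higher, at 0.37 and 0.44, with 2 of 7 tested probes, where 3.3% of all tested probes were higher. The summed signals were 13838 and 14926 against 17098 and 16402. Of 5 Purkinje cell genes 2 were tested (median -0.12, sums of 21832 and 22302 against 19886 and 20713), and of 5 genes of Golgi cells and inhibitory interneurons 2 (median -0.17, sums of 30201 and 31078 against 26546 and 26623), without a call. Of 9 genes of brain stem cholinergic and motor neurons 3 were tested, with sums of 717 and 666 against 611 and 569 and a median of -0.014. Slc5a7 was the one past the criterion, as lower, with 1 of 3 tested probes, where 5% of all tested probes were lower. Chat, Slc18a3, Isl1, Mnx1, Phox2a and Tbx20 were not detected on enough arrays. Of 10 oligodendrocyte genes 9 were tested with 20 probes, and 8, among them Mag, Mal and Mobp, passed the criterion as lower, with 18 of the probes, where 5% of all tested probes were lower. By the adjusted p 5 of these probes were lower, where 0.0322% of all tested probes were. The genes had a median of -0.86 and sums of 86554 and 84882 against 59381 and 55766. Of 10 choroid plexus and meninges genes 8 were tested with 11 probes, with a median of 0.49 and sums of 16017 and 28081 against 23343 and 30586, which overlap. Their log2 differences ran from -1.11 to 2.00. Dcn, Igf2, Lum and Ogn passed the criterion as higher, with 6 probes, and Clic6 as lower, with 1, where 3.3% and 5% of all tested probes did. By the adjusted p 2 probes of this list passed, where 0.106% of all tested probes did. Dcn ILMN_1254458 was detected on no anterior array and tested only through the posterior ones, so it gives a bound of at least 1.23-fold higher there.

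The probes whose pattern over the 4 arrays came closest to that of Chrna3 were sought by the distance between mean-centred log2 values, among the 19913 other probes detected on all 4 arrays. The nearest 5 were those of Clasp2 (distance 0.352), which binds the ends of microtubules, Col28a1 (0.532), a collagen, Moxd1 (0.539), a monooxygenase-like protein, H19 (0.549), an imprinted non-coding RNA, and Ogn (0.565), a proteoglycan of connective tissue. Their log2 differences were 1.72 for Clasp2, 1.34 for Col28a1, 2.34 for Moxd1, 2.22 for H19 and 2.00 for Ogn. Likeness over 4 arrays mainly reflects a similar gap between the lobes. Ogn belongs to the meninges markers above.

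**Figure D4:**
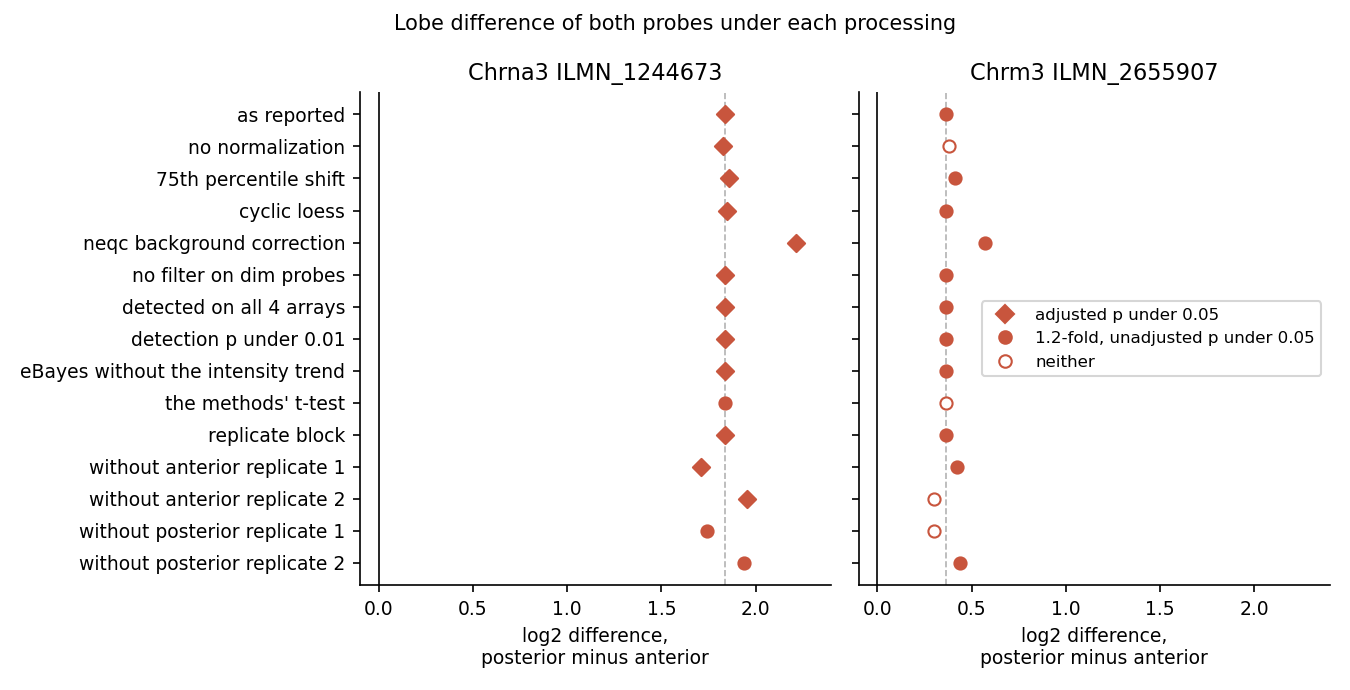
Log2 difference between the lobes, posterior minus anterior, of the Chrna3 and the Chrm3 probe as reported and under 14 other ways of processing (rows), with the dashed line at the reported value. Diamonds passed an adjusted p of 0.05, filled circles only 1.2-fold with an unadjusted p under 0.05, and open circles neither. Chrna3 lay between 1.71 and 2.21 and lost the adjusted p in 3 of the 14, and Chrm3 lay between 0.30 and 0.57 and met the criterion in 10 of them.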

How the data were processed

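The authors deposited, for 45281 probes of the Illumina MouseWG-6 v2.0 chip, the mean bead intensity, its SD over beads and the number of beads on each of the 4 arrays, exported from GenomeStudio 1.9.0 per the file headers without normalization. They also deposited a detection score as a fraction, from which the detection p is 1 minus the score. The methods state a floor of 1 and log base 2, which this table does not carry. Another 16 columns were not used. Array columns were assigned through the sample numbers in the labels, and samples were grouped by lobe.

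In R 4.3.3 the intensities were brought to common quantiles, floored at 1 and put on the log2 scale. A probe was tested if its detection p was under 0.05 on 2 or more of the 4 arrays. Lobes were compared by limma 3.58.1 (lmFit, eBayes with an intensity trend), as posterior minus anterior, with Benjamini-Hochberg adjustment over the tested probes. Each probe is reported on its own, and the number of arrays limits the precision. Values are given for 2 arrays per lobe. Where a probe was not detected in a lobe the fold is a bound, taken against the lowest detected signal of each array. The median of a gene list takes the brightest tested probe of each gene. Fits were checked on simulated data.

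Named are every acetylcholine probe, list genes past the criterion of the study, Chat and Slc18a3, the 5 genes on each side of the cluster, and the 5 genes most like Chrna3. Some marker genes that the rule names are not reported here by name. Other genes beside these were named after their values were seen. Members and lists were chosen with earlier results of these data known. RefSeq on GRCm38.p6 gave gene order and promoter windows, and the build behind the array's probes is not given in the sources used here. Alternatives changed the normalization (none, cyclic loess, scaling to the 75th percentile, neqc with offset 16), the filter (none, a detection p under 0.01, detection on all 4 arrays) or the test (the methods' t-test, eBayes without trend, a replicate block), or left out 1 array.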

Additional observations from a re-analysis of the deposited data

How the results depend on the processing

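Under each of the 14 alternatives Chrna3 was higher in the posterior lobes, at 1.71 to 2.21 on the log2 scale, and passed the adjusted p in 11, whose range over all 14 was 1.97e-05 to 0.624. It lost it with the methods' t-test (1.84, adjusted p = 0.554) and without posterior replicate 1 or 2, and leaving out 1 array gave 1.71 to 1.96. A lobe left with 1 array takes its spread from the other lobe. The member probes past the study criterion, 2 of 10, were 1 without normalization, 1 with the methods' t-test and 1 to 4 when leaving out an array (4 without either anterior replicate, 1 without posterior replicate 1). Those past the adjusted p, 1 of 10, were 0 with the methods' t-test and 0 to 2 when leaving out an array (2 without anterior replicate 1, 0 without either posterior replicate). Over all probes the criterion, 1802, gave 741 with the methods' t-test, 2818 with the replicate block and 766 to 4677 when leaving out an array (4677 without anterior replicate 1, 766 and 811 without posterior replicates 1 and 2). The 23 probes past the adjusted p became 588 with the replicate block, 73 without a filter, 123 without normalization, 13 without the intensity trend, 0 with the methods' t-test (1763 at an unadjusted p under 0.05), and 0 to 2538 when leaving out an array (2538 and 221 without anterior replicates 1 and 2, and 0 by limma without posterior replicate 1 or 2, with 785 and 825 at an unadjusted p under 0.05). The sign turned, when an array was left out, for both Chrna4 probes (-0.42 to 0.14, and -0.42 to 0.22) and for Chrm2 (-0.35 to 0.00034) without anterior replicate 1, for Chrna7 (-0.073 to 0.095) without anterior replicate 2, for Ache (-0.20 to 0.082) without posterior replicate 1, and for Chrnb2 ILMN_1235157 (-0.28 to 0.11) without anterior replicate 2 (0.11) or posterior replicate 1 (0.058). The replicate numbers are not said to mark shared animals, and with 2 pairs a pairing could not be settled (replicate 1 minus replicate 2 correlated between the lobes with r = 0.458 over 21726 probes). The replicate block left Chrna3 at 1.84 (limma adjusted p = 9.66e-05) and changed the adjusted call of no other member. Of the named pathway probes it brought Prima1, Prkcc, Rgs8, Adrbk2 ILMN_1256771 and Kcnj6 ILMN_1256457 and ILMN_3162725 under an adjusted p of 0.05. The probe of Prima1 was not detected in the posterior lobes.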
